A study of Mus musculus with 27 samples.

Results

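Genes of cell cycle arrest and senescence were followed from birth to old age in the mouse heart, 9 in number: Cdkn1a, Cdkn1b, Cdkn2a, Cdkn2b, Cdkn2c, Trp53, Mdm2, Gdf15 and Lmnb1. They were chosen by symbol, and all 9 are among the 22855 genes of the count files of both tissues. The polyA RNA libraries came from C57Bl/6 mice of 5 ages: the first day after birth (P1), 4 and 14 weeks, and 1 and 1.5 years. They comprise 12 samples of sorted fibroblasts, the cardiac cells with PDGFRα on their surface, and 15 of whole heart. The labels name no engineered allele and no treatment in any group, so age and tissue were the only conditions. Each age had 3 samples of whole heart, called hearts below. The younger ages, P1 and 4 weeks, also had 3 samples of fibroblasts each, and the 3 older ages had 2. The fibroblasts were sorted by flow cytometry after enzymatic digestion of the heart, a step that the sources do not describe for the heart RNA. The paper states that RNA was sequenced from fibroblasts and from the hearts that yielded them, so samples of both tissues may share animals. The labels give neither the sex of an animal nor which heart and which fibroblasts came from the same animal. The main tests between tissues therefore treated all samples as independent. The p-values measure only the spread between these samples, which may be technical in part.

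Senescence is a lasting exit from the cell cycle. Its effectors are inhibitors of the cyclin-dependent kinases (CDKs) that phosphorylate the retinoblastoma protein. Cdkn1a (p21) and Cdkn1b (p27) block several cyclin-CDK complexes, while the p16INK4a product of Cdkn2a, Cdkn2b (p15) and Cdkn2c (p18) block the cyclin D kinases. Cdkn2a also encodes p19ARF from an alternative reading frame, which is not an inhibitor of these kinases. Trp53 encodes p53, the transcription factor that induces Cdkn1a after DNA damage, and Mdm2 encodes the ubiquitin ligase that degrades p53 and is itself a p53 target. Gdf15 is a secreted stress cytokine, and Lmnb1 encodes lamin B1 of the nuclear lamina, whose loss is a widely used sign of senescence but whose expression is also high in dividing cells. In the mouse heart, cardiomyocytes leave the cell cycle within the first weeks after birth.

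Both starts of Cdkn1a and that of Mdm2 are shown because both genes are direct p53 targets and, as described further on, only Cdkn1a passed the test of a change with age in the fibroblasts. The sequences are the 250 bases before each start in RefSeq (GRCm38.p6), written 5′ to 3′ on the strand of the gene, and 8 of the 9 members had an entry. Capitals mark matches to a fixed set of patterns searched on both strands. The letters were TATAAA for the TATA box, those of GGGCGG for the GC box and CCAAT for the CCAAT box, with the p53 half-site as its usual pattern. The cell cycle homology region was searched as TTTGAA, the E2F site as TTCCCGC and the cAMP response element as TGACGTCA. No matches overlapped in the windows shown.
Cdkn1a, first start (chr17:29090729-29090978, plus strand): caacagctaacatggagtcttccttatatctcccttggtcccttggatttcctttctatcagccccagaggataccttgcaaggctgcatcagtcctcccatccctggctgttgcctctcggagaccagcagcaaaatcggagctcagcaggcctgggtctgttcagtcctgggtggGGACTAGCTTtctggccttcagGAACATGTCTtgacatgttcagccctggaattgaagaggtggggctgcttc
Cdkn1a, second start (chr17:29093519-29093768, plus strand): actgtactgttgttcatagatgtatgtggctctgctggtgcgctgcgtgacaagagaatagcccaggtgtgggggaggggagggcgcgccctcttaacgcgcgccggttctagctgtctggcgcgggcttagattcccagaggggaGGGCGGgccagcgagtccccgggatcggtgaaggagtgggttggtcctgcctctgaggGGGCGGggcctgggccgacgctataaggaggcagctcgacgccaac
Mdm2 (chr10:117710759-117711008, minus strand): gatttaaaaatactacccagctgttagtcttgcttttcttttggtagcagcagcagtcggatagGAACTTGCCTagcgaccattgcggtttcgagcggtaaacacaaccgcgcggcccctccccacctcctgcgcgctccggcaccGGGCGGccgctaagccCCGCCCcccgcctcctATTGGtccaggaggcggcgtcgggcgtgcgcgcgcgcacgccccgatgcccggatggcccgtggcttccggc
The first Cdkn1a window held 2 p53 half-sites, 73 and 51 bases before the start, and the second held 2 GC boxes. The Mdm2 window held 1 p53 half-site, 2 GC boxes and 1 CCAAT box. Of 32851 promoter windows of this length, 7.13% held a p53 half-site, 32.7% a GC box and 33.8% a CCAAT box. Trp53 had 1 p53 half-site, and the Gdf15 window of its first start had no match to any pattern. These are exact matches of letters in windows that end at the start, and no binding was measured. Stretches that differ from a pattern were not marked. Sites within the genes or further upstream were not searched, so the windows do not show how p53 acts on Cdkn1a or Mdm2.

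The genes lie on 7 chromosomes of the GRCm38 (mm10) build, with positions from the GENCODE M21 annotation. Cdkn2a (chr4:89274471-89294653, minus strand) and Cdkn2b (chr4:89306299-89311039, minus strand) are neighbours, and Cdkn2c lies elsewhere on the same chromosome (chr4:109660876-109667189, minus strand). Cdkn1a lies at chr17:29090976-29100727 on the plus strand. Mdm2 spans chr10:117688875-117710758 on the minus strand, and Trp53 spans chr11:69580359-69591873 on the plus strand. Cdkn1b is at chr6:134920401-134925513 (plus strand), Gdf15 at chr8:70629393-70632456 (minus strand) and Lmnb1 at chr18:56707813-56753424 (plus strand). Of the exonic bases of Cdkn1a, 7.68% are shared with AC167363.2 on the opposite strand, and the sources used here do not say whether strand entered the counting. None of the other members shares exonic bases with another gene. The counts of Cdkn2a do not separate the p16INK4a and p19ARF transcripts.

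Levels are given as CPM, the count of a gene brought to a common library total, scaled within each tissue by the trimmed mean of M-values (TMM). The total count was 54615898 to 76758831 in the fibroblast samples and 46091271 to 67984404 in the hearts, and the mitochondrial share was 1.74% to 9.18% and 10.8% to 34.5%. In the fibroblast samples the summed level of 6 fibroblast markers was 15240 to 27261 CPM, against 588 to 994 CPM in hearts, and that of 6 cardiomyocyte markers was 602 to 667 CPM at P1 and 12.9 to 178 CPM later, against 29405.0 to 86095 CPM in hearts. The sum of 5 endothelial markers was 127 to 1439 CPM in fibroblasts and 425 to 1029 CPM in hearts. At 14 weeks it was higher in fibroblasts (939 to 1203 CPM) than in hearts (579 to 636 CPM). In the fibroblasts of 1.5 years it was 127 and 1022 CPM. The part of endothelial cells in the levels of the 9 genes was not tested. Some libraries listed 0 for genes that the other replicates counted at least 100 times: 4 to 190 such genes per fibroblast library and 0 to 135 per heart. The female-expressed Xist was at most 0.57 CPM at 14 weeks and 1 year and at least 6.48 CPM at the other ages, and the Y-linked Ddx3y was at most 0.397 CPM at 1.5 years and at least 1.64 CPM at the others. Age and sex therefore cannot be told apart in the comparisons, other than between 14 weeks and 1 year. The libraries of P1 and 4 weeks all held both transcripts, at levels that differed. Xist was 137 to 276 CPM in fibroblasts of P1 and 379 to 590 CPM in those of 4 weeks. In hearts it was 124 to 334 CPM at P1 and 6.48 to 140 CPM at 4 weeks, so the mix of sexes may differ between these ages. The sources do not say whether such a library held more than 1 animal. The fits shared the estimate of spread over all ages.

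In cardiac fibroblasts Cdkn1a was the member that increased with age. Its level was 61.1, 43.5 and 47.5 CPM at P1. At 4 weeks it was 222, 179 and 297 CPM, at 14 weeks 129 and 141 CPM, at 1 year 205 and 191 CPM, and at 1.5 years 369 and 472 CPM. Every later sample lay above every sample of P1, the 14-week samples were the lowest of the later ages, and the 1.5-year samples were the highest of all. The rise from P1 to 4 weeks was 4.59-fold in the means, with a log2 fold change of 2.20 ± 0.19 (SE; edgeR quasi-likelihood test, Benjamini-Hochberg adjusted p = 7.8e-06 over all genes tested). At 1.5 years it had reached 8.29-fold over P1 (log2 fold change 3.05 ± 0.21, adjusted p = 8.2e-07) and 3.12-fold over 14 weeks (1.64 ± 0.23, adjusted p = 0.0040). This last call was lost without 14-week replicate 4 and with the replicate number as a block, with an adjusted p between 1.7e-09 and 0.12 over all alternatives. The lower level at 14 weeks than at 4 weeks did not pass the threshold of 0.05 (-0.79 ± 0.21, adjusted p = 0.0638), nor did the difference between 1 year and 14 weeks (0.55 ± 0.23, adjusted p = 0.324).

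Whole hearts showed another course. Cdkn1a was 54.0, 27.9 and 26.7 CPM at P1, 98.8, 70.5 and 48.8 CPM at 4 weeks, and 63.9, 36.4 and 84.6 CPM at 14 weeks. The level then was 15.5, 16.6 and 13.5 CPM at 1 year and between 52.8 and 62.0 CPM in the 3 hearts of 1.5 years. The 1-year hearts were the lowest of all and did not overlap with any other age, while the other ages overlapped in part. Cdkn1a rose from P1 to 4 weeks (1.01 ± 0.31, adjusted p = 0.0338), a call that 7 of 23 alternatives lost. It fell from 14 weeks to 1 year by 2.02 on the log2 scale (SE 0.32, adjusted p = 0.0104). This call was lost without 14-week replicate 3 or without 1-year replicate 1 or 2, where the adjusted p ranged up to 0.075. The change from P1 to 1.5 years was 0.63 ± 0.31 and did not pass (adjusted p = 0.136). In a fit over both tissues, the change to 1.5 years was larger in fibroblasts than in hearts by 2.40 ± 0.43 on the log2 scale (adjusted p = 0.0006), the only member of 9 for which this difference passed, against 13.6% of all genes tested. At 4 weeks the difference was 1.19 ± 0.41 and did not pass (adjusted p = 0.0816). In that comparison none of the 9 members passed in edgeR or in DESeq2, 2 had an unadjusted p under 0.05, and 7.14% of all genes passed.

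**Figure D1:**
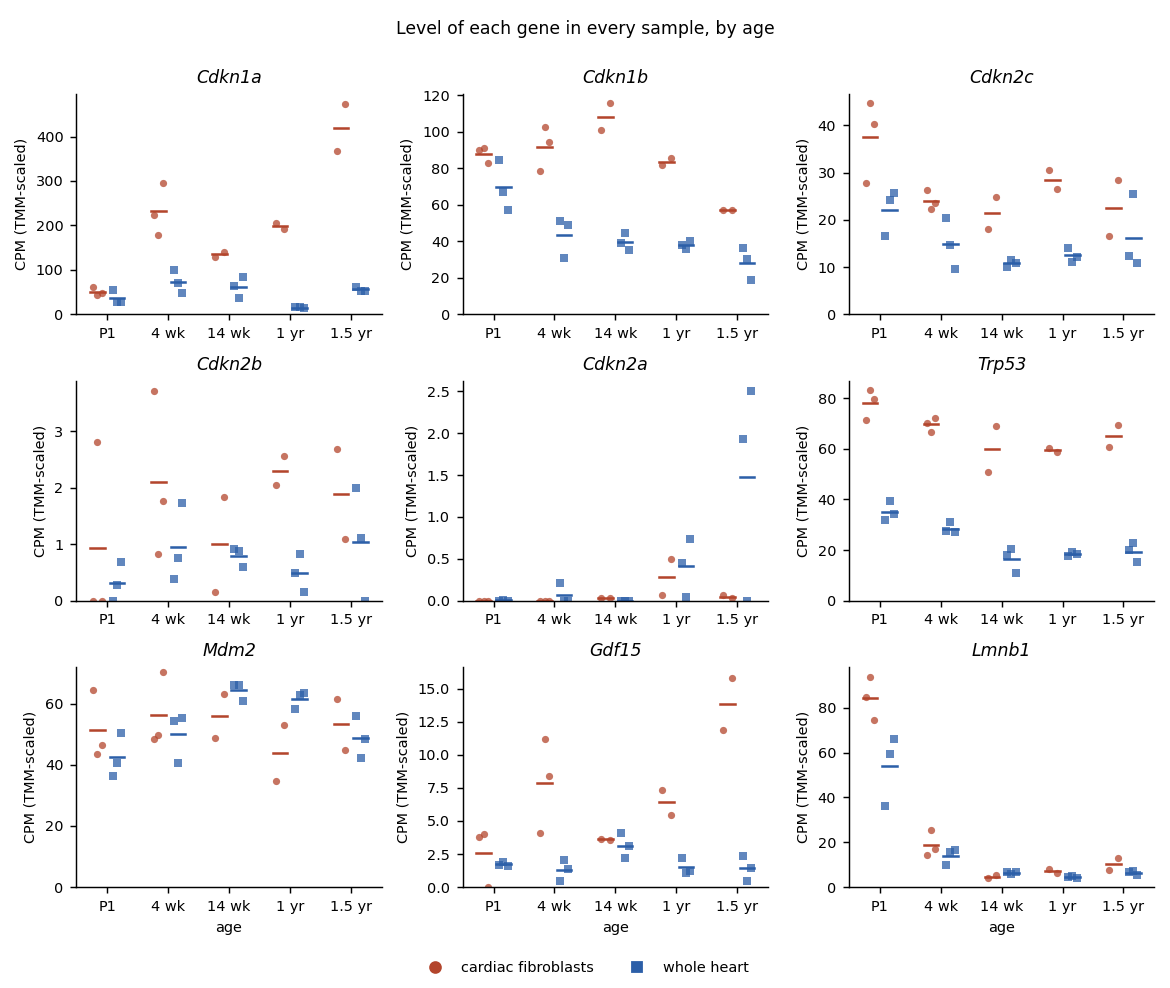
Level of each of the 9 genes in every sample. Points are single samples in CPM, TMM-scaled within tissue, on linear axes from 0 with a scale of their own in each panel; circles are cardiac fibroblasts, squares whole hearts, and short lines group means. Cdkn1a reaches 369 and 472 CPM in the fibroblasts of 1.5 years, and Lmnb1 is highest at P1 in both tissues.

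Genes known to respond to the isolation of cells were high in the same libraries. The summed level of a fixed list of 12 genes of the immediate early and heat shock responses, which react within minutes to handling and digestion of cells, was 12549.5 to 17567 CPM in fibroblasts of P1. It was 29321 to 31844 CPM at 4 weeks, 28706 to 31667 CPM at 14 weeks, 35508 to 37227 CPM at 1 year and 39606 to 42001 CPM at 1.5 years, against 184 to 636 CPM in hearts. Cdkn1a was likewise lowest at P1 and highest at 1.5 years, but the ages between differed. The sums of 4 and 14 weeks overlapped, whereas Cdkn1a was higher in every sample of 4 weeks than in those of 14 weeks. At 1 year the sum was above that of 4 weeks, while the Cdkn1a samples lay within the range of 4 weeks. Of the 12 genes, 11 rose from P1 to 4 weeks and 11 from P1 to 1.5 years in fibroblasts, where 15.5% and 16.3% of all genes passed in either direction, and 0 fell. Examples are Atf3, a stress-induced transcription factor, with a log2 fold change of 2.45 ± 0.23 to 1.5 years (adjusted p = 9.7e-06), and Hspa1a, an inducible chaperone, with 5.23 ± 0.64 (adjusted p = 8.7e-05). The part of this signal in the levels of Cdkn1a was not tested.

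Cdkn1b differed from Cdkn1a in direction. Fibroblast levels were 89.9, 91.2 and 82.7 CPM at P1, 78.3, 103 and 94.6 CPM at 4 weeks, 101 and 116 CPM at 14 weeks, 81.9 and 85.6 CPM at 1 year, and 57.0 and 57.0 CPM at 1.5 years. The fibroblasts of 1.5 years were below all others. The fall to 1.5 years was 0.93 on the log2 scale from 14 weeks (SE 0.16, adjusted p = 0.0101) and 0.63 from P1 (SE 0.15, adjusted p = 0.00996). The first of these calls was lost without any one of the 4 libraries compared and with the replicate number as a block, and the second without either library of 1.5 years. In hearts Cdkn1b was 84.4, 67.0 and 57.4 CPM at P1 and 36.1, 30.0 and 18.6 CPM at 1.5 years, with 30.9 to 51.4 CPM at the ages between. The hearts of P1 were above all later hearts. The fall from P1 to 1.5 years was 1.30 on the log2 scale (SE 0.24, adjusted p = 0.000573), and it passed in all 23 alternatives run.

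The INK4 genes Cdkn2a and Cdkn2b were close to the limit of detection. Cdkn2a had 46 counts over all 12 fibroblast libraries, 31 of them in 1 library of 1 year, and 0 in each of the 6 libraries of P1 and 4 weeks. It did not pass the filter on low counts there and was not tested in fibroblasts. In hearts it had 0, 1 and 0 counts at P1, 13, 0 and 0 at 4 weeks, and 0 in all 3 libraries of 14 weeks. At 1 year it had 23, 2 and 37 counts, and at 1.5 years 105, 0 and 152 counts, the latter 1.93 and 2.5 CPM where present. Of the 3 oldest hearts, 2 thus held the highest counts of the series, and the other held none. Over the groups, the share of counts at 1.5 years was 268 times that of P1, with a 95% interval of 47.7 to 10632 (exact Clopper-Pearson, counting error only). It was 76.3 times that of 14 weeks when a floor of 3 counts over the group was put in place of 0. These ratios leave out the spread between hearts. The samples of 14 weeks and 1.5 years overlapped, and that change did not pass in edgeR (9.56 ± 3.24, adjusted p = 0.0669). As the hearts of 14 weeks held 0 counts, the size of this fold change and its SE are not estimates of a ratio. The call from P1 to 1.5 years (adjusted p = 0.0484, and 0.0056 to 0.24 over the alternatives) was lost in 12 of 21 alternatives, among them every fit that left out a heart of P1 or of 1 year. Zeros in place of at least 100 counts in the other replicates numbered 36 genes in the heart of 1.5 years with no Cdkn2a count, against 32 in the heart with 105 counts and 135 in the heart with 152.

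Cdkn2b was low in both tissues without a call at any age, at 0 to 3.71 CPM in fibroblasts and 0 to 2.00 CPM in hearts. It was at 0 in 2 libraries of P1 fibroblasts and at 2.81 CPM in the other. Without that library it passed from P1 both to 4 weeks and to 1.5 years, so the fibroblast values at birth decide this gene. The 2 libraries without Cdkn2b counts listed 0 for 107 and 190 genes that the other replicates counted at least 100 times. The library at 2.81 CPM did so for 167 genes. Cdkn2c, the INK4 gene with the highest level, was 27.7, 44.8 and 40.2 CPM in fibroblasts of P1 and 16.5 to 30.6 CPM at later ages. In hearts it was 16.5 to 25.6 CPM at P1 and 9.67 to 25.5 CPM later. The log2 fold change from P1 to 1.5 years was -0.74 ± 0.28 in fibroblasts (adjusted p = 0.102) and -0.44 ± 0.32 in hearts (adjusted p = 0.317), and neither passed. From P1 to 14 weeks it fell in hearts by 1.03 (SE 0.33, adjusted p = 0.030, with 23.4% of all genes called), a call lost in 5 of 23 alternatives, among them each fit without a heart of 14 weeks.

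Trp53 varied little in fibroblasts, from 50.9 to 83.2 CPM over all 12 samples, and fell with age in hearts. The heart levels were 32.0, 39.4 and 34.2 CPM at P1, 27.3, 30.9 and 27.1 CPM at 4 weeks, and 18.1, 20.3 and 10.9 CPM at 14 weeks. They were 17.6, 19.2 and 18.5 CPM at 1 year and 20.2, 22.6 and 15.3 CPM at 1.5 years. All hearts of P1 and of 4 weeks were above all hearts of the 3 later ages. The fall from P1 to 1.5 years was 0.86 on the log2 scale (SE 0.22, adjusted p = 0.00727) and passed in all 23 alternatives, with log2 fold changes of -1.46 to -0.72. The share of mitochondrial counts was lowest in the hearts of P1, and the call also passed when these counts were left out of the library size. In fibroblasts the same change was -0.26 ± 0.16 (adjusted p = 0.291), and the difference between the tissues, 0.57 ± 0.29, did not pass (adjusted p = 0.198).

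Mdm2 passed over all ages in hearts (adjusted p = 0.0402 in edgeR) and did not in fibroblasts (adjusted p = 0.827). Its fibroblast level was 34.7 to 70.3 CPM over all ages, with a log2 fold change of 0.05 ± 0.26 from P1 to 1.5 years (adjusted p = 0.963), while that of Cdkn1a over the same samples was 3.05. The heart levels were 36.5, 40.6 and 50.5 CPM at P1 and 66.2, 66.1 and 60.8 CPM at 14 weeks. All hearts of 14 weeks were above those of P1, of 4 weeks and of the oldest age. Against P1 the log2 fold change was 0.60 ± 0.17 at 14 weeks (adjusted p = 0.0145) and 0.53 ± 0.17 at 1 year (adjusted p = 0.0306), where 23.4% and 20.7% of all genes passed. The direction depended on the scaling: under library size alone these values were -0.16 and -0.15 and did not pass, and with mitochondrial genes also left out the calls were lost as well. They were also lost without P1 replicate 1 or 2, without 14-week replicate 1 or 2 for the first, and without any heart of 1 year for the second.

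Gdf15 had its highest levels in the oldest fibroblasts, at 11.9 and 15.9 CPM. It was 3.79, 4.00 and 0 CPM at P1, 4.06, 11.2 and 8.40 CPM at 4 weeks, 3.67 and 3.55 CPM at 14 weeks, and 7.36 and 5.47 CPM at 1 year. The 1.5-year samples did not overlap with any other age, but the spread was wide and the change from P1 did not pass (2.42 ± 1.20, adjusted p = 0.208). The zero came from the fibroblast library with the most zeros of this kind, 190 genes, and without that library the change passed. In hearts Gdf15 was 0.430 to 4.08 CPM with no call between ages.

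Lmnb1 had the largest decrease of the 9 genes, and it did so in both tissues. Fibroblast levels were 84.7, 93.7 and 74.5 CPM at P1, 14.3, 25.4 and 16.9 CPM at 4 weeks, 3.97 and 5.17 CPM at 14 weeks, 8.13 and 6.29 CPM at 1 year, and 7.70 and 13.0 CPM at 1.5 years. Heart levels were 36.2, 59.5 and 65.9 CPM at P1, 9.79, 15.4 and 16.6 CPM at 4 weeks, and 4.17 to 7.18 CPM at the 3 later ages. In both tissues P1 and 4 weeks each stood apart from all the later ages. The fall to 4 weeks was 2.16 on the log2 scale in fibroblasts (SE 0.27, adjusted p = 0.000131) and 1.95 in hearts (SE 0.26, adjusted p = 4.6e-05). From 4 to 14 weeks it fell by a further 2.04 in fibroblasts (SE 0.32, adjusted p = 0.00394), a call lost without 14-week replicate 4, and by 1.11 in hearts (SE 0.26, adjusted p = 0.0384), a call lost in 12 of 23 alternatives, where the adjusted p ranged from 0.0029 to 0.18. By 1.5 years the fall from P1 was 3.03 in fibroblasts and 3.07 in hearts, and the difference between the tissues was 0.01 ± 0.40. After 14 weeks there was no further decrease in fibroblasts: the level at 1.5 years was 2.26-fold that of 14 weeks, which did not pass in edgeR (1.18 ± 0.33, adjusted p = 0.0841) and passed in DESeq2.

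**Figure D2:**
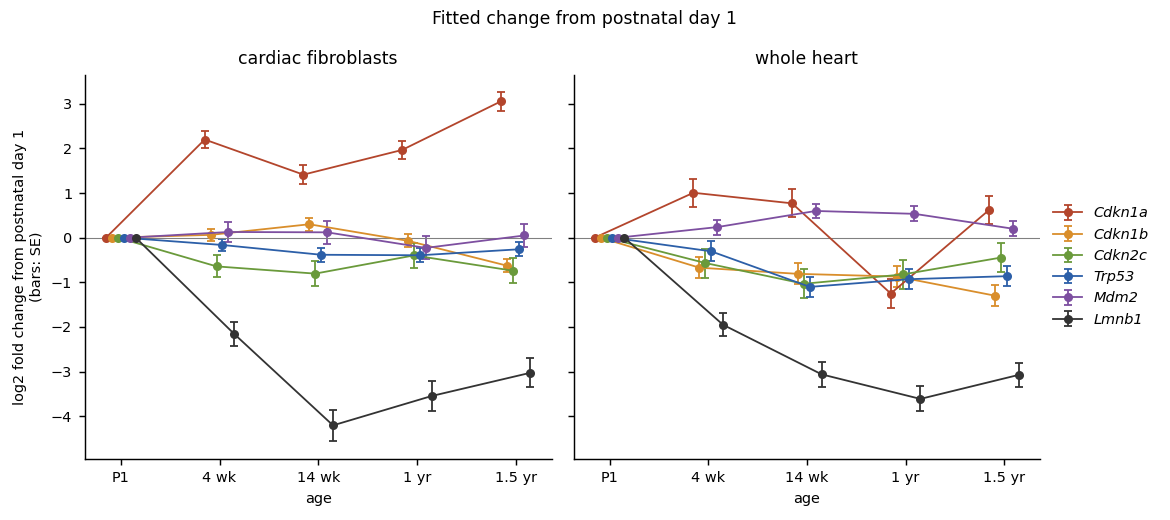
Fitted log2 fold change from P1 at each later age for 6 of the genes, with SE as error bars, in fibroblasts (left) and hearts (right); the points are set slightly apart along the age axis. Lmnb1 is lower at each later age in both tissues, at -3.03 and -3.07 at 1.5 years, whereas Cdkn1a reaches 3.05 in fibroblasts and 0.63 in hearts.

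The decline of Lmnb1 ran beside that of the proliferation genes. Of 13 such genes, 10 fell in fibroblasts from P1 to 4 weeks and 12 to 1.5 years, and none rose. Of all genes, 15.5% and 16.3% passed there in either direction. In hearts 9 and 12 fell, where 18.2% and 31.8% of all genes passed in either direction. Mki67, the Ki67 proliferation antigen, went from 205 ± 49.8 CPM (SD, n = 3) to 4.09 ± 0.358 CPM (n = 2) in fibroblasts, and Top2a, a topoisomerase of dividing cells, from 118 ± 26.8 to 2.40 ± 0.492 CPM. The median log2 fold change of the list to 1.5 years was -2.66 in fibroblasts and -1.83 in hearts, against 0 and -0.15 over all genes. Among 15 G1 cyclins, CDKs and pocket proteins, 9 fell by 1.5 years in each tissue, and 2 rose in fibroblasts. In that comparison 16.3% of all genes passed in fibroblasts and 31.8% in hearts. Ccnd1, the cyclin D1 partner of the kinases that the INK4 proteins bind, went from 414 ± 42.3 to 127 ± 16.5 CPM in fibroblasts (-1.71 ± 0.18, adjusted p = 2.5e-05). The other CDK inhibitors measured were 2. Cdkn1c (p57) fell in fibroblasts by 2.57 on the log2 scale to 4 weeks (SE 0.22, adjusted p = 6.2e-06), from 345 ± 70.9 to 57.8 ± 18.3 CPM, and by 1.84 in hearts (SE 0.30, adjusted p = 0.000354), and Cdkn2d (p19INK4d) fell in hearts by 0.92 (SE 0.26, adjusted p = 0.0196).

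Other p53 targets were followed as a list of 19 genes. Of these, 4 rose and 1 fell in fibroblasts from P1 to 1.5 years, where 16.3% of all genes passed, with a median log2 fold change of 0.10 against 0 over all genes. Fas, a death receptor, rose by 2.94 ± 0.32 (adjusted p = 3.6e-05) and Rrm2b, a ribonucleotide reductase subunit, by 1.07 ± 0.29 (adjusted p = 0.0218), while Trp53inp1, a regulator of p53 activity, fell by 1.34 (SE 0.34, adjusted p = 0.0159). Between 14 weeks and 1.5 years, where Cdkn1a rose, 0 of the 19 passed in edgeR, 3 had an unadjusted p under 0.05, and 2.72% of all genes passed. The summed level of the 19 genes in fibroblasts was 860 to 1030 CPM at P1 and 1545 to 2094 CPM at 4 weeks. It was 1213 to 1238 CPM at 14 weeks, 1523 to 1715 CPM at 1 year and 1267 to 1342 CPM at 1.5 years. The sum was thus lowest at P1, as Cdkn1a was, but its mean was highest at 4 weeks and not at 1.5 years. In hearts 3 rose and 6 fell from P1 to 1.5 years, where 31.8% of all genes passed, and Ccng1, a cyclin G gene, was the highest of those named, at 810 ± 170 CPM after 238 ± 63.6 CPM. Of 9 tested p53 regulators none passed from P1 to 1.5 years in fibroblasts in edgeR, with 2 at an unadjusted p under 0.05, and in hearts 6 fell, among them the kinase gene Atr (-2.22 ± 0.46, adjusted p = 0.00147) and the p53 inhibitor Mdm4 (-1.75 ± 0.37, adjusted p = 0.00173).

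Of 24 genes of the senescence-associated secretory phenotype, 15 rose in fibroblasts from P1 to 1.5 years and none fell, where 16.3% of all genes passed. From P1 to 4 weeks 12 rose and none fell (15.5% of all genes), and from 4 to 14 weeks 1 rose and 2 fell (3.87%), where the list had its median at -0.70 on the log2 scale. From 14 weeks, 8 rose to 1 year (1.78%) and 9 to 1.5 years (2.72%), and none fell. Il6, an inflammatory cytokine, went from 13.3 ± 4.56 CPM at P1 to 258 ± 62.6 CPM at 1.5 years (4.27 ± 0.41, adjusted p = 1.2e-05), and Igfbp6, a binding protein of insulin-like growth factors, from 18.1 ± 3.82 to 368 ± 16 CPM. In hearts 10 of 22 tested rose from P1 to 1.5 years, 1 fell and 11 did not pass, against 31.8% of all genes, with Igfbp6 at 8.68 ± 3.48 and 58.1 ± 11.0 CPM. Their summed level in hearts overlapped between these ages, at 811 to 1222 CPM and 945 to 1057 CPM. All 6 leukocyte and macrophage markers rose in the same hearts, from a summed level of 38.4 to 41.5 CPM at P1 to 326 to 431 CPM at 1.5 years, and their part in the heart result was not tested. In fibroblasts the sum of these markers was 82.6 to 159 CPM at P1 and 69.2 to 76.3 CPM at 1.5 years. The integrated stress response genes, which include known inducers of Gdf15, had 4 of 8 higher and none lower in fibroblasts between 14 weeks and 1.5 years, against 2.72% of all genes. Ddit3 (CHOP) went from 12.7 ± 2.27 to 34.0 ± 0.368 CPM, and Ppp1r15a (GADD34) from 326 ± 53.2 to 885 ± 4.09 CPM. The called genes of both lists rose in the fibroblast libraries in which the immediate early genes were also highest. Several of their members, such as Atf3, Il6 and Cxcl2, are themselves induced by cell handling. Atf3 is also in the immediate early and heat shock list, so the lists share members and their rises are not separate observations. The part of isolation in these rises was not tested.

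**Figure D3:**
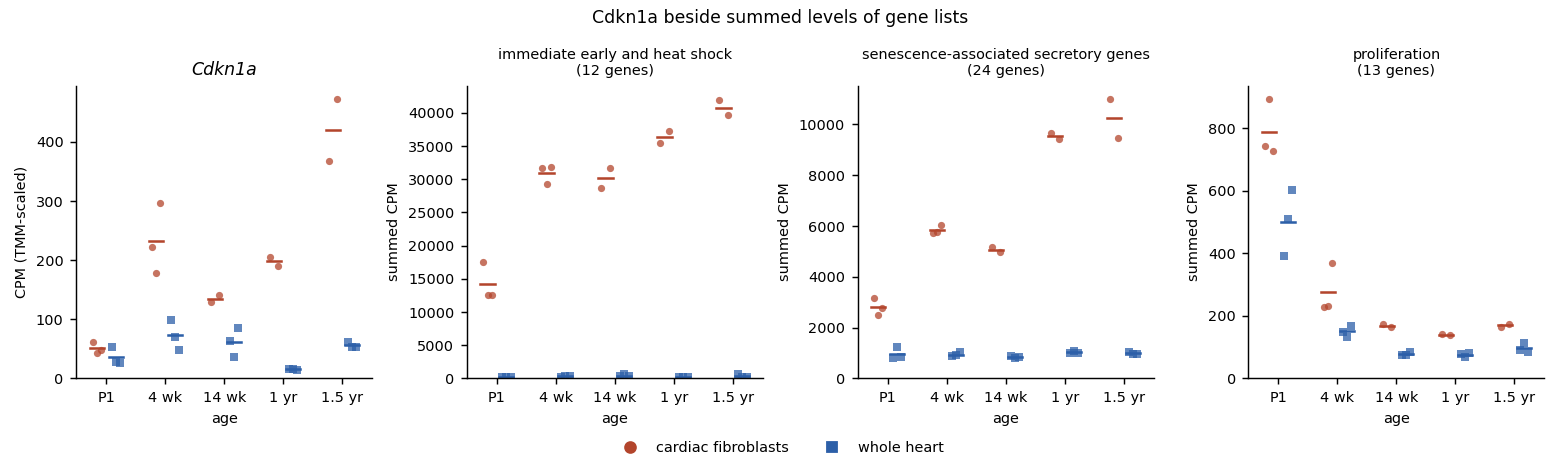
Cdkn1a level and the summed level of 3 gene lists in every sample by age, in CPM on linear axes from 0; circles are cardiac fibroblasts, squares whole hearts, and lines group means. In fibroblasts the immediate early list stands at 39606 to 42001 CPM at 1.5 years and at 184 to 636 CPM in all hearts.

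A pair of gene groups is related to Lmnb1 and to the INK4 locus. Of 11 other genes of the nuclear lamina and envelope, 3 rose and 2 fell in fibroblasts from P1 to 1.5 years, and 1 rose and 4 fell in hearts, where 16.3% and 31.8% of all genes passed. Lmna, the gene of the A-type lamins, rose in fibroblasts from 307 ± 49.0 to 612 ± 41.8 CPM (0.99 ± 0.16, adjusted p = 0.000749), and Lmnb2, the other B-type lamin, fell from 32.4 ± 11.8 to 13.5 ± 0.692 CPM (-1.27 ± 0.33, adjusted p = 0.0176). In hearts Tmpo, a lamina-associated protein gene, fell by 1.81 (SE 0.19, adjusted p = 3.1e-06). The Polycomb proteins repress the INK4 locus, and of 11 genes of Polycomb and H3K27 demethylases 2 rose and 2 fell in fibroblasts, and 1 rose and 5 fell in hearts, in the same comparison. Ezh2, the H3K27 methyltransferase, fell in fibroblasts from 25.0 ± 8.09 to 7.58 ± 4.44 CPM (-1.72 ± 0.44, adjusted p = 0.0163) and in hearts by 2.06 (SE 0.41, adjusted p = 0.00107). Cbx7, a subunit that binds H3K27 methylation, rose from 2.67 ± 2.45 to 69.9 ± 20.5 CPM in fibroblasts (4.71 ± 0.93, adjusted p = 0.0034).

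**Figure D4:**
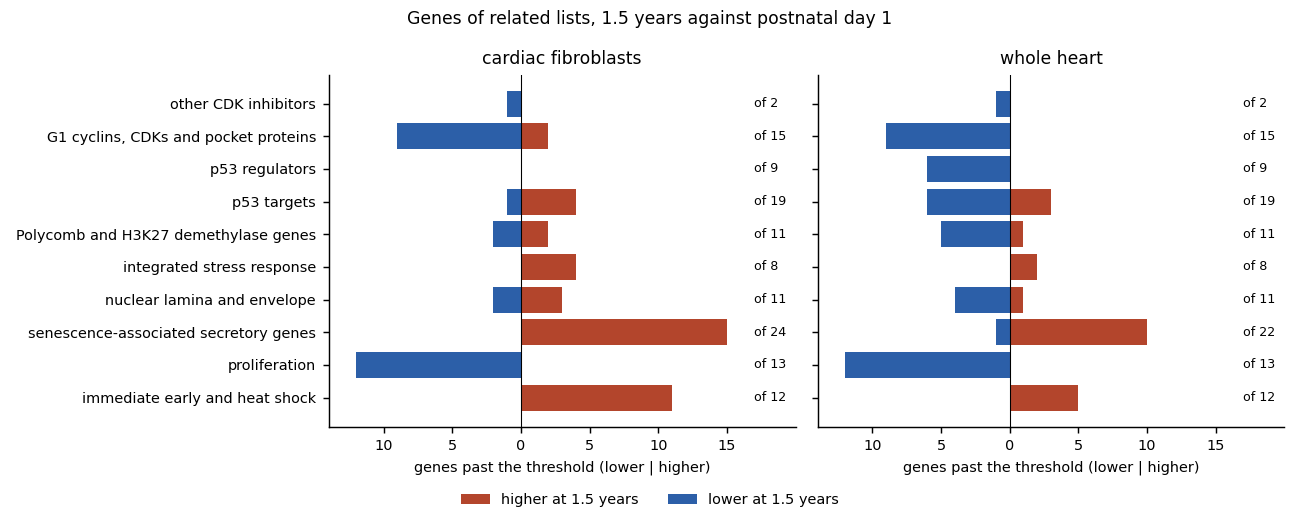
Number of genes of each list that passed the threshold from P1 to 1.5 years, lower to the left and higher to the right of 0, with the number tested at the right; fibroblasts left, hearts right. In fibroblasts 15 of 24 secretory and 11 of 12 immediate early genes are higher, and 12 of 13 proliferation genes are lower in both tissues. Of all genes tested, 16.3% passed in fibroblasts and 31.8% in hearts.

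The number of members past the threshold is read against the share of all genes. Over all ages, 3 of 8 tested members passed in fibroblasts, where 19.9% of all genes did, and 5 of 9 in hearts, where 34.3% did. From P1 to 4 weeks, 2 of 8 passed in fibroblasts against 15.5% of all genes, and 2 of 9 in hearts against 18.2%. From 4 to 14 weeks it was 1 of 8 against 3.87% in fibroblasts and 1 of 9 against 1.61% in hearts. Between 14 weeks and 1 year, 0 of 8 passed in fibroblasts in edgeR, 0 in DESeq2 and 2 at an unadjusted p under 0.05, with 1.78% of all genes called, and 1 of 9 in hearts against 0.972%. Between 14 weeks and 1.5 years, 2 of 8 passed in fibroblasts against 2.72% and 0 of 9 in hearts in edgeR, with 2 at an unadjusted p under 0.05, 1 in DESeq2 and 12.8% of all genes called. From P1 to 1.5 years, 3 of 8 passed in fibroblasts against 16.3% and 4 of 9 in hearts against 31.8%.

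Fibroblasts and hearts differed for 6 of the 9 genes over the mean of the ages, against 56.8% of all genes. Levels in fibroblasts were higher for Cdkn1a by 1.63 ± 0.14 on the log2 scale, for Gdf15 by 1.41 ± 0.48, for Trp53 by 1.21 ± 0.09, for Cdkn1b by 0.66 ± 0.10 and for Cdkn2c by 0.48 ± 0.15, with adjusted p in edgeR from 3.5e-11 to 0.0135. Mdm2 was lower by 0.37 (SE 0.10), a call lost under library size scaling, where the difference was -0.03. Lmnb1 differed by 0.05 ± 0.13 and did not pass (adjusted p = 0.874). The 12 immediate early and heat shock genes were all higher in fibroblasts, by a median of 5.24. The sorted cells were freed by digestion, a step not described for the heart RNA, so tissue and isolation cannot be told apart in these differences.

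Per kilobase of exon, the mean level over the 5 ages in fibroblasts was 58.3 CPM for Cdkn1a, 18.8 for Cdkn1b, 16.4 for Trp53, 10.3 for Mdm2, 9.99 for Cdkn2c, 8.46 for Lmnb1, 3.71 for Gdf15, 1.18 for Cdkn2b and 0.0623 for Cdkn2a. Cdkn1a stood first by its later ages, since at P1 it was 14.3 ± 2.60 CPM per kilobase, below Lmnb1 at 28.5 ± 3.23, Cdkn1b at 19.3 ± 1.00 and Trp53 at 19.3 ± 1.50. Mdm2 and Cdkn2c, neighbours in this order, differed by less than the sum of their SDs at every age. In hearts the order began with Cdkn1a at 13.6, Mdm2 at 10.5 and Cdkn1b at 9.63 CPM per kilobase, and ended with Cdkn2b at 0.518 and Cdkn2a at 0.335. This order also varied with age. At P1 Cdkn1a was 10.2 ± 4.33 CPM per kilobase in hearts, below Lmnb1 at 18.2 ± 5.28 and Cdkn1b at 15.3 ± 3.00, and at 1 year it was 4.28 ± 0.449, below Mdm2 at 12.1 ± 0.579 and Cdkn1b at 8.36 ± 0.480.

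The profiles nearest to each member were found among 12243 genes by the root mean square difference of 10 group means on the log2 scale, centred within tissue. For Cdkn1a these were Rnf8 at 0.326, Chst7 at 0.379 and Colq at 0.465, and for Lmnb1 Sox4 at 0.370, Etv4 at 0.421 and Nsl1 at 0.440. Gdf15 was nearest to Dedd2 at 0.270, Mblac2 at 0.373 and Klf4 at 0.414. Members with flatter profiles had closer neighbours: Snx4 at 0.112 for Cdkn1b, Washc1 at 0.0904 for Cdkn2c, Dennd2a at 0.0937 for Trp53 and Setd3 at 0.0913 for Mdm2.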

How the data were processed

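The raw counts per gene deposited by the authors, 1 table per tissue, came from the GeneCounts mode of STAR 2.5.3a after alignment of single-end reads to mm10. The strand column and the annotation are not given in the sources used here. The deposited libraries were kept apart and not pooled. Groups followed tissue and age as labelled. Each tissue was fitted over all its ages with edgeR 4.0.16 in R 4.3.3 (filterByExpr, TMM, quasi-likelihood test), which tested 18759 genes in fibroblasts and 17995 in hearts, and a fit over both tissues and all 10 groups (20650 genes) gave the differences between tissues. p-values were Benjamini-Hochberg adjusted over all genes tested and called under 0.05. SE is the log2 fold change divided by the root of F. The study's own test, DESeq2 (1.42.0 here), was run as an alternative. The other alternatives were no filter, at least 10 counts in every sample, DESeq2 size factors, library size scaling with and without mitochondrial genes, a replicate block by number, a fit restricted to the ages compared, and leaving out each replicate.

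Lists of related genes were fixed as tables of symbols. Examples named from them have an adjusted p under 0.05, no overlap between the ages, a mean of at least 10 CPM at one of them and the largest change, up to 3 per list and comparison. The 9 genes, the lists and the tests were chosen with earlier results of these data known. Genes nearest in profile have a mean of at least 1 CPM in both tissues, with a pseudocount of 0.1 CPM. The scripts were tested on simulated data. No pair of the 24 pairs of replicates held identical counts. Depth was 46091271 to 76758831 counts per sample, and intervals cover counting error only. Promoter windows come from RefSeq (GRCm38.p6) and positions and exon lengths from GENCODE M21. Figures were drawn with matplotlib.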

Additional observations from a re-analysis of the deposited data

Results flagged for a closer look

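The change of Cdkn1a from P1 to 1.5 years differed between the tissues in a test of the difference itself, the interaction term of the edgeR fit over both tissues: the log2 fold change was larger in fibroblasts than in hearts by 2.40 (SE 0.43, adjusted p = 0.0006). Cdkn1a was higher at 1.5 years than in every sample of P1 in 2 of 2 fibroblast samples and in 1 of 3 hearts. The difference passed in all 33 alternatives run, from 1.98 to 2.80. The immediate early and heat shock genes rose in the same fibroblast samples, and the part of this in the difference was not tested. Age and sex cannot be told apart here either. The Y-linked Ddx3y was at most 0.397 CPM in the samples of 1.5 years and at least 4.58 CPM in those of P1.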

How the results depend on the processing

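The calls that reversed in direction were 2, those of Mdm2 in hearts from P1 to 14 weeks and to 1 year, which were -0.16 and -0.15 on the log2 scale under library size scaling. Of 3092 values of single genes under an alternative, 2970 kept their side of the threshold. In the same direction, 67 lost a call and 53 gained one, and the other 2 were the reversals above. The values that kept their side include those called in neither fit, whatever their direction. The comparisons of hearts of 14 weeks and 1 year with P1 were chosen after seeing the data. The calls that passed in all alternatives run were those of Cdkn1a in fibroblasts and of Lmnb1 in both tissues from P1 to 4 weeks and to 1.5 years, of Cdkn1b and Trp53 in hearts from P1 to 1.5 years, of Trp53 and Lmnb1 in hearts from P1 to 14 weeks and to 1 year, of the Cdkn1a difference between tissues at 1.5 years, and of Cdkn1a, Cdkn1b, Cdkn2c, Trp53 and Gdf15 between fibroblasts and hearts. In fibroblasts from 4 to 14 weeks, 2 members passed instead of 1 with DESeq2, with no filter and with at least 10 counts in every sample, as Cdkn1a was added. From P1 to 1.5 years in fibroblasts, 5 passed instead of 3 under library size scaling, with and without mitochondrial genes (Cdkn2c and Trp53 added). Between 14 weeks and 1 year in fibroblasts, 1 passed (Cdkn1a) in the fit of only the 2 ages. In hearts from 4 to 14 weeks, 2 passed with DESeq2 and under library size scaling (Trp53 added) and 0 in the fit of only the 2 ages. Between 14 weeks and 1.5 years in hearts, 1 passed with DESeq2 (Cdkn2a). From P1 to 4 weeks in hearts, 4 passed under library size scaling (Cdkn1b, Cdkn2c, Lmnb1 and Trp53) and 1 in the fit of only the 2 ages (Lmnb1). For the difference between tissues at 4 weeks, 2 passed under library size scaling, 1 without mitochondrial genes and 1 with at least 10 counts, and for that at 1.5 years 3 under library size scaling. Library size scaling moved the median change over all genes in hearts on the log2 scale from -0.09 to -0.60 at 4 weeks. The cause of these moves was not tested.

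Leaving out 1 library at a time gave 2 to 3 members over all ages in fibroblasts, 2 to 3 from P1 to 4 weeks, 0 to 2 from 4 to 14 weeks, 0 between 14 weeks and 1 year, 0 to 2 between 14 weeks and 1.5 years and 2 to 4 from P1 to 1.5 years. In hearts the ranges were 4 to 6, 1 to 3, 0 to 1, 0 to 1, 0 to 1 and 3 to 5. A group left with 1 library was assumed to vary like the others. The differences between tissues gave 0 at 4 weeks, 1 at 1.5 years and 6 over the mean of the ages in all these fits.

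Same-numbered samples showed no strong shared deviation. The correlations of their deviations were -0.0616 to 0.131 between ages in fibroblasts (7 pairs) and -0.155 to 0.256 in hearts (30 pairs). Between tissues they were -0.0393 to 0.051 at P1 and 4 weeks. The numbers were therefore not taken to pair samples. At the older ages the tissues share no number, so pairing between them could not be checked there. In groups of 2 samples the deviations mirror each other, so the fibroblast pairs are not all separate. With the replicate number as a block, 0 members passed between 14 weeks and 1.5 years in fibroblasts, where 20 genes passed in all in place of 511, and 0 from 4 to 14 weeks in hearts. The block could not be estimated for 4 to 14 weeks, P1 to 1.5 years and all ages in fibroblasts, nor for the tissue difference at 1.5 years or over the mean of the ages.

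There were 2 fibroblast samples at each of the 3 oldest ages, and Cdkn2a and Cdkn2b stayed under 4 CPM, so that single libraries decide their calls.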
